A study of Mus musculus with 4 samples.

Results

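A set of 49 genes of the actin cytoskeleton and of serum response factor (SRF), the transcription factor tied to it, was followed in basal epithelial cells of the mouse prostate, comparing the tips of the gland with its ducts. Members were the rows of the deposited table whose gene name is in a fixed list of 49 symbols, and each symbol matched 1 of the 49671 rows. The list was drawn up partly because Mical2 and Ahnak were higher in both duct libraries, so the tip against duct values of these 2 genes are descriptions, and counts over the list are read with that choice in mind. The data are 4 RNA-seq libraries of sorted cells, 2 labelled tip and 2 labelled duct. All 4 came from the ventral lobe of male mice, for which the labels name no strain, transgene or treatment, and 20 mice were used in the series. For age, the sample titles read postnatal day 13 whereas the age field reads days 10 to 12. Lobes were chopped into tips and ducts, cells bearing CD45, CD31 or CD140a were removed, and basal cells were taken as high for EpCAM and CD49f. How the mice were pooled over the libraries is not given in the sources used here, and the cell type field calls all 4 libraries tip, so groups were taken from the titles. Whether replicates are separate animals is not stated either, and every SD and p-value here therefore reflects only how far these samples differ, a spread that can be technical. The series concerns collagen signalling and matrix stiffness in glandular stem cells.

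Actin exists as free monomers and as filaments, and the balance between them is set by proteins that bind monomers, nucleate or cap filaments, sever them or tie them to myosin and to the membrane. Free actin holds the coactivators MRTF-A and MRTF-B, encoded by Mkl1 and Mkl2, out of action. When filaments form, MRTF is released and joins SRF at CArG boxes, which lie upstream of many genes of actin itself and of its binding partners. In epithelial cells this machinery carries tension to the matrix and shapes the cell.

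Promoters are shown for the regulator, for members that carry its binding motif and for the 2 members named in the choice of the list. RefSeq promoter windows of build GRCm38.p6, 250 bases before to 50 after a start site, matched 46 of the 49 members in 61 windows (Mkl1 and Mkl2 under their newer names). Actb, Coro1b and Diaph1 were not matched. Windows were searched on both strands for the CArG box, which is CC, then A or T at each of the next 6 bases, then GG, and which reads the same in form on either strand. A CArG box was found in 5 members, 10.9% of those matched, namely Actg1, Cnn2, Fhl2, Lima1 and Srf, and in 1.81% of the 27025 genes with a window. Srf itself held 2 boxes, 82 and 62 bases before its start site. The stretches below run 5′ to 3′ on the strand of the gene, with the CArG box in capitals.
Actg1, chr11:120348551-120348610, minus strand: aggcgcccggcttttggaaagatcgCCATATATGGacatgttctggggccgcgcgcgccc
Cnn2, chr10:79988519-79988578, plus strand: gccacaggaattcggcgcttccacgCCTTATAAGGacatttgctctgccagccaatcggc
Lima1, chr15:99820162-99820221, minus strand: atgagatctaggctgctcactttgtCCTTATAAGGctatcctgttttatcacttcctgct
Fhl2, the start site of higher coordinate, chr1:43196823-43196882, minus strand: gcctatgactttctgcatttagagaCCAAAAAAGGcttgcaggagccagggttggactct
Fhl2, the other start site, chr1:43163962-43164017, minus strand: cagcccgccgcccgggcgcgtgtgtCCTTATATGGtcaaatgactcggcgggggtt
Srf, 250 bases before its start site, chr17:46556163-46556412, minus strand: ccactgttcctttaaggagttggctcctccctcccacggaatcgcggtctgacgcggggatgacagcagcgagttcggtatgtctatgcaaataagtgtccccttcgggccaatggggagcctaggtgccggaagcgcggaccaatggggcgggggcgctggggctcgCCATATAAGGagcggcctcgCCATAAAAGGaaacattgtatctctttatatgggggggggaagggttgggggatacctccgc

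The windows of Mical2 and Ahnak held no CArG box by these letters. The same windows were searched for the AP-1 site TGANTCA and for GGAATG, a motif of the TEAD factors that act with YAP, on both strands, and no match of 1 motif overlapped a match of another in the members. The AP-1 letters were in 5 members (10.9%, against 8.97% of all genes with a window) and the TEAD letters in 10 (21.7% against 16.6%). Ahnak had 1 TEAD match, on the opposite strand and so read as CATTCC, and Mical2 had none of the 3 motifs. The RefSeq start site of Mical2 lies shortly before chr7:112225856, where the gene begins in GENCODE M21. The bases just after the RefSeq start site are therefore partly outside the GENCODE transcripts. The result for Mical2 covers this window only. A match is a description of letters and not a site shown to be bound. The 250 bases before each start site are given with the match in capitals.
Mical2, chr7:112225586-112225835, plus strand: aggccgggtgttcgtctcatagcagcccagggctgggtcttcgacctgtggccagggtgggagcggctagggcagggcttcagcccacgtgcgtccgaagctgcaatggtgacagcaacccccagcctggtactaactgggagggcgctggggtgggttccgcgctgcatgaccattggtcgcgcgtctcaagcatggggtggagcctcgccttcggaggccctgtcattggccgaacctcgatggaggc
Ahnak, chr19:8989034-8989283, plus strand: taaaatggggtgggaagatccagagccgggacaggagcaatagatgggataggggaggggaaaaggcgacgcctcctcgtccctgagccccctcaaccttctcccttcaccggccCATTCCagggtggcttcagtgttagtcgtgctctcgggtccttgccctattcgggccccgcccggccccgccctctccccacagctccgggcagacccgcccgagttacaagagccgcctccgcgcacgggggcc

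The deposited values divided by 20 are counts per 1000000 reads (CPM), and from their steps 1439004 to 1742531 whole reads per library were recovered, so that 1 read was worth 0.574 to 0.695 CPM. Every member passed the filter of a mean of at least 1 CPM, with 5 to 10421 reads in a library, and 38 of 49 averaged over 100 CPM. The basal markers Krt5 (650.5 and 513 CPM in the tips and 490.4 and 148 CPM in the ducts) and Krt14 (599 and 686 CPM in the tips and 1744 and 512 CPM in the ducts) were present in each library. Stromal markers were present as well, which the sort was meant to remove, and Pdgfra, the gene of CD140a, measured 192 and 231 CPM in the tips and 42.1 and 650.2 CPM in the ducts. The 15 fibroblast markers summed to 6526 and 13955 CPM in the tips and to 3181 and 22877 CPM in the ducts, so that the 2 duct libraries lay at the ends. All 15 were lowest in duct 1, and 13 were highest in duct 2. The 8 basal markers ran the other way, at 5305 and 4519 CPM in the tips and 7576 and 2338 CPM in the ducts, and 5 were highest in duct 1. In bulk RNA, fewer cells of a type and less RNA per cell cannot be told apart.

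Fold changes are differences of mean log2(CPM + 1), tip minus duct, so negative values mean lower in tip. The values behind the choice of the list are part of this contrast, so what follows describes the members and tests nothing about the list. The median log2 fold was -0.19 over the 49 members and 0.20 over the 17865 genes tested, and 36 members were negative, as were 36.9% of all genes tested. Most members are abundant transcripts, and among the 2097 genes averaging 100 CPM or more, a class chosen after the data were seen, the median was 0.06 and 43.5% were negative. The 38 members in that class had a median of -0.31, and 31 of them were negative. TMM scaling trims extreme genes before setting the library sizes. With it the median gene moved to 0.03 and the members to -0.38, with 40 members and 48.3% of all genes negative. In the class averaging 100 CPM or more, the TMM medians were -0.14 over all genes and -0.51 over the 38 members.

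**Figure D1:**
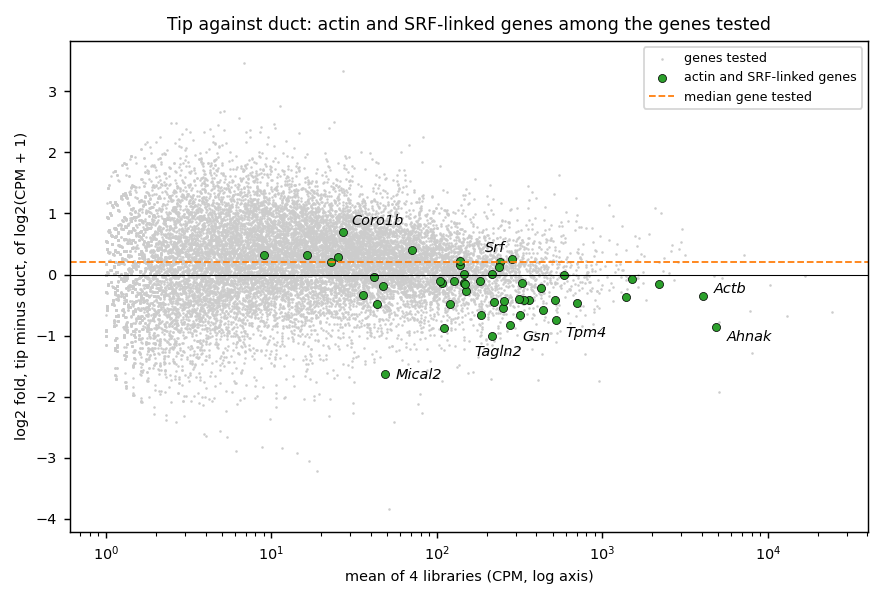
Each point is 1 gene, with its mean over the 4 libraries on the horizontal axis (CPM, log axis) and its log2 fold, tip minus duct, on the vertical axis. Green points are the 49 actin and SRF-linked genes, grey points the 17865 genes tested, and the dashed line the median gene at 0.20. Mical2 (-1.62) lies lowest among the green points and Coro1b (0.70) highest.

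No member passed the test over all genes. The limma adjusted p of the members ran from 0.667 to 0.998, and 0% of all genes were called in either direction (0 of 17865). At an unadjusted p under 0.05, limma counted 4 members lower in tip (Mical2, Ahnak, Tagln2 and Tpm4) and 0 higher, where 1.61% of all genes were lower and 5.82% higher at that level. On the recovered reads edgeR called 0 genes, and at an unadjusted p under 0.05 it counted 8 members lower and 0 higher, and 2.93% and 2.99% of all genes. DESeq2 called 0 members and 0.0112% of all genes lower, and at an unadjusted p under 0.05 it counted 8 members lower and 0 higher, where 1.66% and 0.666% of all genes were. Mical2, Ahnak, Tagln2 and Tpm4 were in all 3 lists, which rest on the same 4 libraries. With genes at low level kept in, limma called 2 members, Mical2 and Ahnak, with 0.118% of all genes lower and 0.229% higher. Both were behind the choice of the list, so their place in each of these counts is a description. The values below are therefore given as measured, and none is reported as a change.

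Both tip libraries lay below both duct libraries for 12 members, and above them for 3. Over all genes tested the same was true of 11.1% and 28.5%. Among the genes averaging 100 CPM or more it was 16.3% and 24.1%, and 11 and 0 of the 38 members in that class. With TMM scaling 19 members lay below and 1 above, and 18% and 20.4% of all genes. Of the genes averaging 100 CPM or more, 31% lay below with TMM scaling. Median-ratio scaling gave 20 and 1, and 19.2% of all genes either way. The 12 were Mical2, Ahnak, Tagln2, Tpm4, Tpm3, Ezr, Msn, Pdlim7, Arpc2, Cnn3, Lima1 and Cap1. Of these, Mical2 and Ahnak were behind the choice of the 49 genes. The 3 were Coro1b, Capg and Pfn2, of which Coro1b alone kept that order under TMM. The difference between group means was larger than both differences within groups for 7 of the 49 members and for 27.6% of all genes tested.

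**Figure D2:**
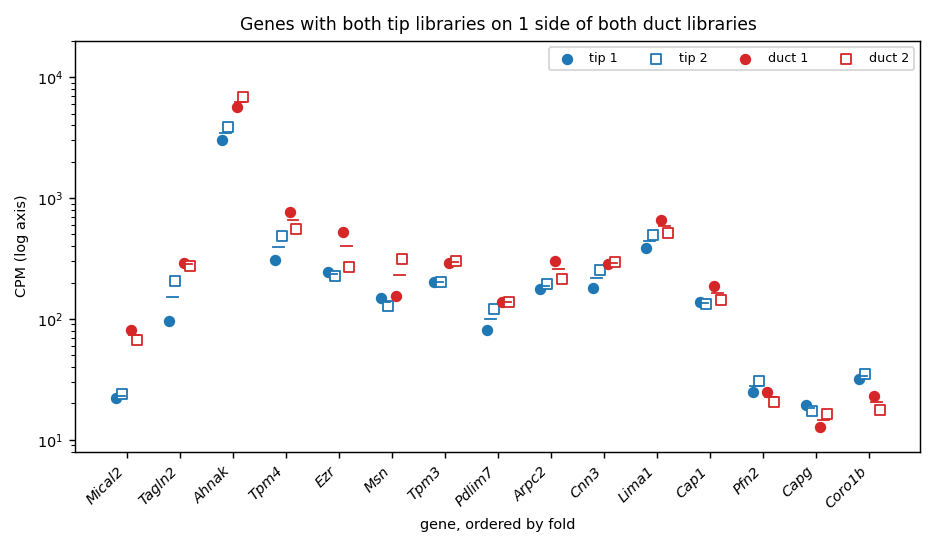
Level in CPM (log axis) of the 15 members whose groups did not overlap, in each library, with short lines at the group means. Genes are ordered by fold. Mical2 (-1.62) and Coro1b (0.70) are the ends of the order, and for Pfn2, Msn, Lima1, Cap1 and Capg the nearest tip and duct libraries almost touch.

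The actins came out lower in tip 1 and higher in duct 1, with the other libraries between. Actb, the gene of beta-actin (chr5:142903115-142906754), measured 2997 and 4092 CPM in the tips and 5457 and 3692 CPM in the ducts. Its log2 fold was -0.36 ± 0.30 (SE), and the groups overlapped because duct 2 lay below tip 2, whereas with TMM scaling both tips lay below both ducts. Actg1, the gene of gamma-actin, measured 985 and 1378 CPM in the tips and 2064 and 1104 CPM in the ducts, in the same order of libraries, with overlapping groups under each scaling. Of the 50-base words of the longest Actg1 coding transcript, 56.7% also occur in transcripts of other genes, against 14.2% for Actb. How the authors' counting treated reads that match several genes is not given in the sources used here, so the level of Actg1 is uncertain to that extent.

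SRF and its cofactors had log2 folds of -0.19 to 0.15. Srf (chr17:46548329-46556175) measured 185 and 240.5 CPM in the tips and 282 and 156 CPM in the ducts, so that the highest and the lowest value were both in duct. Mkl2, which encodes MRTF-B, measured 158 and 133 CPM in the tips and 128 and 134 CPM in the ducts. Mkl1, which encodes MRTF-A, measured 48.0 and 40.2 CPM in the tips and 42.8 and 58.6 CPM in the ducts, with a log2 fold of -0.19 ± 0.34 (SE) that turned to 0.04 without duct 2. Srf and Mkl2 overlapped between groups under each scaling, and Mkl1, overlapping as deposited, was lower in both tips with TMM and median-ratio scaling.

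Non-muscle myosin II, the motor that pulls on actin filaments, overlapped between groups in all 4 of its genes. Its main heavy chain gene Myh9 measured 1883 and 2274 CPM in the tips and 2787 and 1885 CPM in the ducts, tip 1 and duct 2 being nearly equal. Myh10, a second heavy chain, measured 229 and 291 CPM in the tips and 248 and 200.3 CPM in the ducts. The regulatory light chain gene Myl12a measured 272 and 342 CPM in the tips and 453 and 248 CPM in the ducts, and its neighbour Myl12b 70.2 and 90.1 CPM in the tips and 73.3 and 49.5 CPM in the ducts. Myl12b had the largest positive value of the 4 genes, 0.40 ± 0.33 (log2 fold, SE), with tip 2 high and duct 2 low. The 2 light chain genes lie side by side and share 29.6% and 33.0% of their 50-base words with other genes, each other included, and both overlap exons of a further annotated gene of the name Myl12b on their strand, so reads may be split among them.

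Tropomyosins lie along the actin filament and set which partners can bind it. Tpm4 and Tpm3 were the 2 whose groups did not overlap. Tpm4 (chr8:72134975-72153142) measured 306 and 484 CPM in the tips and 761 and 553 CPM in the ducts, with a log2 fold of -0.75 ± 0.32 (SE). Tpm3 measured 202 and 203 CPM in the tips and 291 and 303 CPM in the ducts, with replicates close together in both groups and a log2 fold of -0.55 ± 0.26 (SE). For Tpm3, 62.4% of the 50-base words recur in other genes, the largest share in the list, so its level is uncertain. For Tpm4 the share was 12.1%. Tpm1 measured 990.3 and 2023 CPM in the tips and 1789 and 1231 CPM in the ducts, and here the tips differed from each other by more than the groups did. Tpm2, which is abundant in muscle, measured 84.1 and 219 CPM in the tips and 81.7 and 165 CPM in the ducts, high in tip 2 and duct 2, the libraries that were also higher in fibroblast markers.

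The calponin, transgelin and caldesmon genes, whose products bind along filaments and tune contraction, were all lower on average in tip. Tagln2, encoding transgelin 2, measured 95.9 and 205 CPM in the tips and 291 and 274 CPM in the ducts, with a log2 fold of -1.002 ± 0.37 (SE). Both duct libraries lay above both tips, yet tip 2 was 2.14 times tip 1 and so nearer to the ducts. Without tip 1 the log2 fold of Tagln2 was -0.46. Cnn3, an acidic calponin, measured 181 and 253 CPM in the tips and 284 and 296 CPM in the ducts (log2 fold -0.44 ± 0.28, SE). Cnn2 measured 102 and 179.7 CPM in the tips and 165 and 135 CPM in the ducts and Cald1, the gene of caldesmon, 211 and 407 CPM in the tips and 285 and 542 CPM in the ducts, with overlapping groups in both. For Cald1 the libraries higher in fibroblast markers, tip 2 and duct 2, were also the higher ones within their groups.

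A further 8 members bind monomers or drive filament turnover. Cap1, the gene of a cyclase-associated protein that recycles monomers, measured 138 and 133 CPM in the tips and 187 and 143 CPM in the ducts (log2 fold -0.27 ± 0.28, SE), and its groups were separated only by the narrow step from tip 1 to duct 2. Pfn2, the gene of a profilin, which feeds monomers to growing ends, was higher in both tips at 25.1 and 30.4 CPM in the tips and 24.9 and 20.4 CPM in the ducts (log2 fold 0.28 ± 0.38, SE), a separation of less than 1 read between tip 1 and duct 1 that was lost under TMM scaling. The widely expressed profilin gene Pfn1 measured 149 and 201 CPM in the tips and 226 and 152 CPM in the ducts. Cofilin cuts filaments, and its gene Cfl1 measured 335 and 459 CPM in the tips and 490.4 and 429 CPM in the ducts, while Cfl2 measured 69.5 and 139.5 CPM in the tips and 106 and 112 CPM in the ducts. Both overlapped between groups as deposited, and Cfl1 lay lower in both tips with TMM and median-ratio scaling. Wdr1, a cofilin partner, measured 204 and 372 CPM in the tips and 489.8 and 274 CPM in the ducts, in the library order of the actins. Thymosins hold monomers in reserve. Tmsb4x lay within a narrow band at 541 and 628 CPM in the tips and 573 and 604 CPM in the ducts, and Tmsb10 measured 24.4 and 37.4 CPM in the tips and 27.4 and 53.4 CPM in the ducts.

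Gelsolin-type proteins cap filament ends. Gsn, encoding gelsolin, measured 146 and 190.0 CPM in the tips and 136 and 636 CPM in the ducts, so that duct 2 alone stood far above the other libraries and exceeded duct 1 4.66-fold. Gsn shared this order, highest in duct 2 and lowest in duct 1, with 13 of the 15 fibroblast markers, and Mical1 and Coro1c were the other members with it (3 of 49, beside 9.38% of all genes). Capg measured 19.5 and 17.2 CPM in the tips and 12.8 and 16.5 CPM in the ducts (log2 fold 0.32 ± 0.42, SE), and its separation was lost under TMM scaling.

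Among the linkers of actin to the membrane, Ahnak was the member with the most reads after scaling in either duct library. Ahnak (chr19:8989284-9076914), which encodes a giant scaffold protein beneath the plasma membrane, measured 3049 and 3889 CPM in the tips and 5653 and 6865 CPM in the ducts. The tips averaged 3469 ± 594 CPM and the ducts 6259 ± 857 CPM (SD, n = 2 each), a 1.80-fold difference and a log2 fold of -0.86 ± 0.27 (SE). Ahnak was 1 of the 2 genes behind the choice of the list, so this is a description. No 50-base word of its transcript recurs in another gene. The ERM proteins ezrin, moesin and radixin link filaments to membrane proteins, and the order of the libraries differed among their genes. Ezr measured 245 and 228 CPM in the tips and 527 and 269 CPM in the ducts (log2 fold -0.67 ± 0.35, SE), where duct 1 stood alone. Msn measured 149 and 127 CPM in the tips and 154 and 311 CPM in the ducts (log2 fold -0.67 ± 0.36, SE), where duct 2 stood alone. Msn is strongly expressed by endothelial and blood cells, and the 8 endothelial markers summed to 97.5 and 97.2 CPM in the tips and 39.1 and 291 CPM in the ducts, also highest in duct 2. Their part in the Msn value was not tested. Without duct 1 the log2 fold of Ezr was -0.18, and without duct 2 that of Msn was -0.16. Rdx measured 281 and 214 CPM in the tips and 263 and 193 CPM in the ducts, with overlapping groups.

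The Arp2/3 complex nucleates branched filaments, and coronins act where such branches are taken apart. Of its subunits, Arpc2 was the 1 with separate groups, at 178 and 195 CPM in the tips and 304 and 214 CPM in the ducts (log2 fold -0.45 ± 0.29, SE). Actr3 measured 204 and 337 CPM in the tips and 429 and 277 CPM in the ducts and Actr2 138 and 138 CPM in the tips and 184 and 129.8 CPM in the ducts. Of the 50-base words of Actr3, 49.8% recur in other genes, so its level is uncertain. Arpc5 measured 90.3 and 110.2 CPM in the tips and 119 and 97.5 CPM in the ducts, and Arpc1b 126 and 116 CPM in the tips and 119 and 142 CPM in the ducts. In these 4 genes the groups overlapped as deposited, whereas with TMM scaling both tips lay below both ducts for Actr2, Arpc5 and Arpc1b. Coro1b was the member with the highest positive fold, at 32 and 35.05 CPM in the tips and 23.0 and 17.8 CPM in the ducts (log2 fold 0.70 ± 0.38, SE). Coro1b shares exon sequence with Ptprcap on its own strand, a gene of lymphocytes, and overlaps exons of Rps6kb2 on the other, so its counts are uncertain. Coro1c measured 43.8 and 36.8 CPM in the tips and 31.9 and 53.4 CPM in the ducts.

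Formins build unbranched filaments. Diaph1, a target of the GTPase RhoA, measured 147 and 140.1 CPM in the tips and 188 and 107 CPM in the ducts, and Diaph3 18.8 and 31.0 CPM in the tips and 19.8 and 21.8 CPM in the ducts (log2 fold 0.21 ± 0.41, SE). Neither separated by group, and the sign for Diaph3 turned to -0.14 without tip 2.

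MICAL enzymes oxidise actin and take filaments apart, and MICAL-2 is known for raising MRTF and SRF activity by lowering actin in the nucleus. Mical2 (chr7:112225856-112413106) measured 22.2 and 24.1 CPM in the tips and 81.0 and 66.5 CPM in the ducts. The tips averaged 23.2 ± 1.34 CPM and the ducts 73.8 ± 10.2 CPM (SD, n = 2 each), a 3.18-fold difference and a log2 fold of -1.62 ± 0.33 (SE). Behind these values, 74 recovered reads in tip against 228 in duct gave a duct to tip ratio of 3.18 (95% interval from read counts 2.43 to 4.19). That interval pools the 2 libraries of each group and covers counting error only, so the spread between libraries is left out of it. Both ducts lay at more than 2 times either tip. Mical2 was the other gene behind the choice of the list, so its values and their interval too are descriptions. With all 4 libraries it had the largest fold of the members under the deposited, TMM and median-ratio scalings and in edgeR and DESeq2. Without duct 1, Gsn passed it at -1.93 against -1.48. In the related genes the groups overlapped. Mical3 measured 343 and 274 CPM in the tips and 305 and 219 CPM in the ducts, and Mical1, counted with 5 to 22 reads a library, 9.05 and 9.20 CPM in the tips and 3.2 and 14.5 CPM in the ducts. No 50-base word of the 3 MICAL transcripts recurs in other genes.

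LIM-domain and bundling proteins of stress fibres and adhesions had 6 members, and all 6 were lowest in tip 1. Lima1, encoding EPLIN, which stabilises filaments, measured 388 and 495 CPM in the tips and 664 and 513 CPM in the ducts (log2 fold -0.41 ± 0.28, SE). Pdlim7, the gene of enigma, measured 80.7 and 120.0 CPM in the tips and 138 and 139 CPM in the ducts (log2 fold -0.49 ± 0.30, SE). In both the groups were separate, for Lima1 only by the narrow step from tip 2 to duct 2. The other 4 overlapped as deposited, of which Pdlim5 lay lower in both tips with TMM and median-ratio scaling. Fhl2, a known target of MRTF and SRF and a bearer of the boxes printed above, measured 40.4 and 128 CPM in the tips and 163 and 109 CPM in the ducts, where tip 2 exceeded tip 1 3.17-fold. Palld, encoding palladin, measured 475 and 678 CPM in the tips and 1083 and 573 CPM in the ducts, and Pdlim5 298 and 378 CPM in the tips and 749 and 335 CPM in the ducts, both with duct 1 above the other 3 libraries. Fscn1, the gene of the bundling protein fascin, measured 19.5 and 49.95 CPM in the tips and 24.9 and 78.4 CPM in the ducts.

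**Figure D3:**
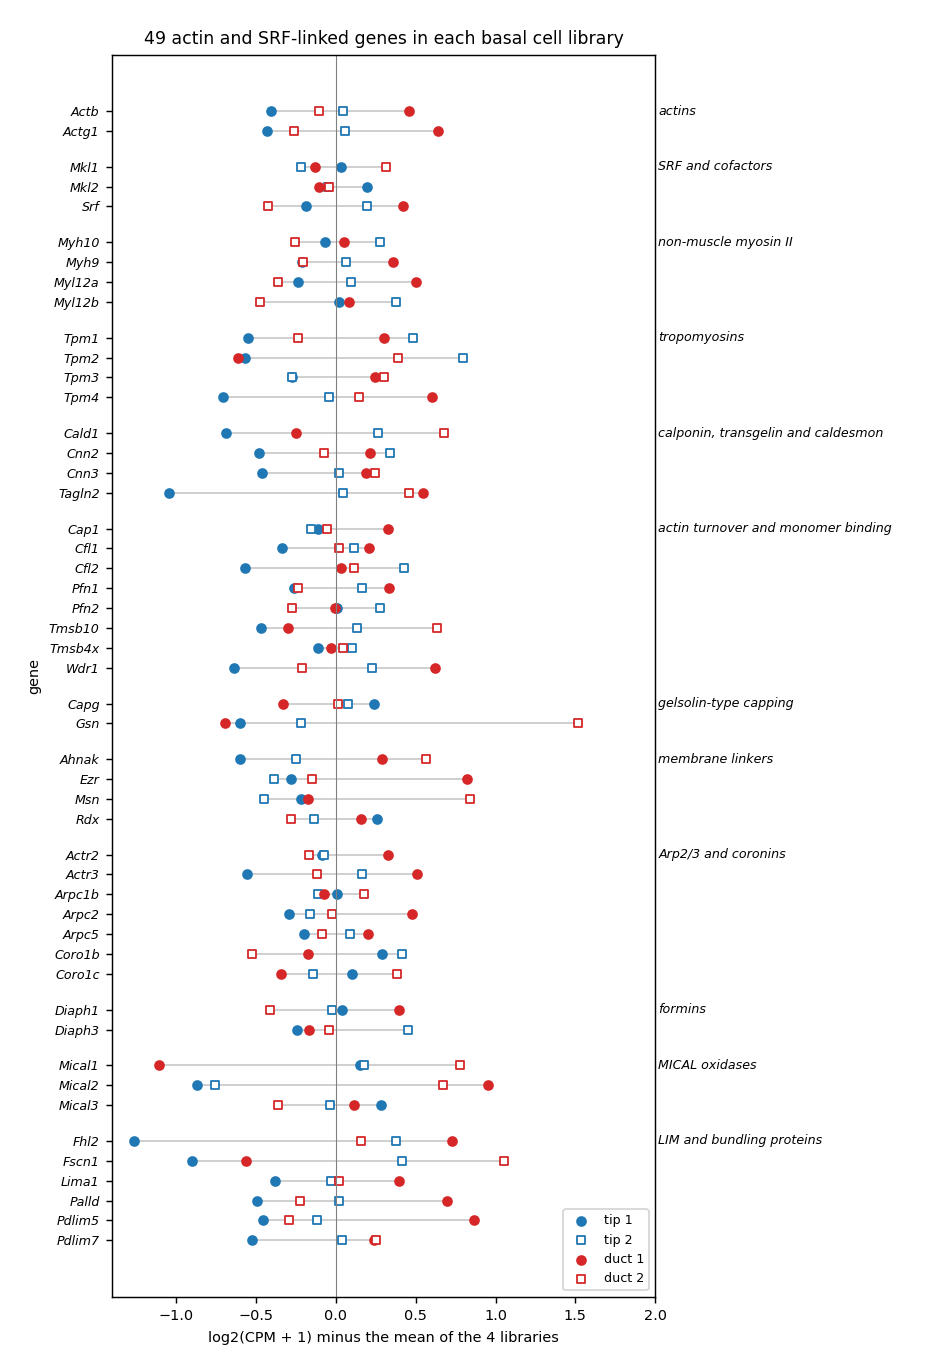
For each of the 49 genes, grouped by role, the position of the 4 libraries on log2(CPM + 1) minus the mean of the 4 libraries. Blue is tip and red is duct, filled circles are replicate 1 and open squares replicate 2. Tip 1 is the leftmost symbol in 28 genes and duct 1 the rightmost in 22.

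Single libraries stood at the ends for many members. Tip 1 was the lowest library for 28 of 49 members (57.1%), against 17.2% of all genes tested, and the highest for 4. Duct 1 was the highest for 22 (44.9%), against 23.0%. Both held together for 16 members, including Actb, Actg1, Actr3, Wdr1, Palld and Fhl2, and for 7.28% of all genes. Within the tips, 38 of 49 members were higher in tip 2 than in tip 1, against 42.7% of all genes. Within the ducts, 30 were higher in duct 1 than in duct 2, against 51.4%. All 49 genes together made up 1.70% and 2.28% of reads in the tip libraries and 2.90% and 2.42% in the duct libraries. Among the 5 members with a CArG box, 4 were highest in duct 1 and 4 were lowest in tip 1. Of the 28 SRF targets outside the members, described below, 7 were highest in duct 1, 9 highest in tip 2 and 10 lowest in tip 1.

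**Figure D4:**
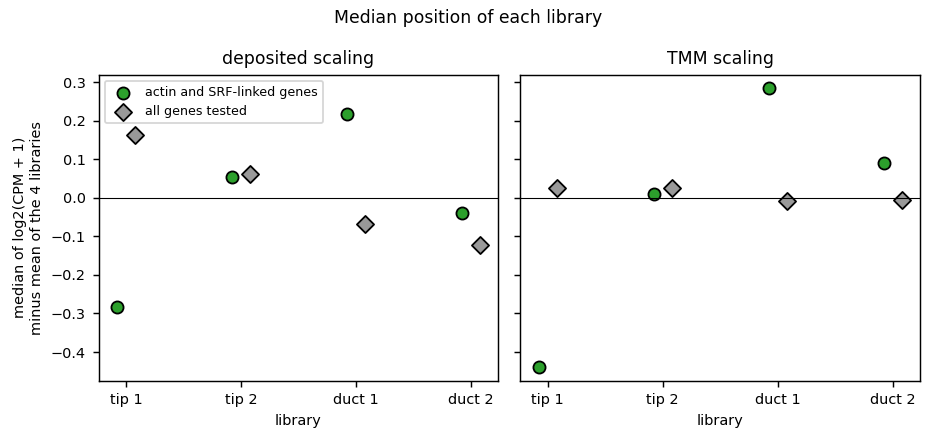
Median over genes of log2(CPM + 1) minus the mean of the 4 libraries, for the 49 members (green circles) and all genes tested (grey diamonds), with the deposited scaling (left) and TMM scaling (right). The members run from -0.28 in tip 1 to 0.22 in duct 1 as deposited and from -0.44 to 0.28 with TMM, whereas all genes lie between -0.12 and 0.16 and between -0.01 and 0.03.

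Leaving out single libraries moved the size of the group difference. The median log2 fold of the members was -0.03 without tip 1, -0.52 without tip 2, -0.08 without duct 1 and -0.34 without duct 2, with 28, 38, 28 and 31 members negative. Members whose remaining tips lay below the remaining ducts, 12 with all libraries, numbered 14, 31, 20 and 27 in the same order, with 23.3%, 20.3%, 25.7% and 28.3% of all genes. Members above numbered 11, 6, 11 and 8, with 38.3%, 47.2%, 48.1% and 45.8% of all genes. With 1 duct library left, limma assumed it to vary like the tips and did call members. Without duct 1 it called Gsn, Msn, Mical2 and Ahnak lower in tip (4 of 49, and 1.74% of all genes). Without duct 2 it called Fhl2, Tagln2, Pdlim5, Actb, Tpm4, Mical2, Ezr, Palld, Actg1 and Ahnak (10 of 49, and 1.15% of all genes). Mical2 and Ahnak were in both, and both were behind the choice of the 49 genes, so this overlap is a description. Without either tip library 0 members were called.

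Levels can be set beside each other only per length, here as mean CPM per kilobase of annotated exons, a scale that understates genes with many rarely used exons. Actb stood first at 1515 CPM per kilobase, followed by Actg1 at 520.3 and Tmsb4x at 428. Ahnak (244), Tpm4 (239) and Tpm1 (233) came next at nearly the same level per kilobase, and Myh9 followed at 171. Mical2 was next to last at 3.19, above Mical1 at 1.49. The member with the widest difference between tip and duct was thus among the 2 lowest by level per kilobase, while Ahnak stood at rank 4.

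Other genes of the pathway were taken as a list of 48 actin regulators outside the members, all of them tested. Of these, 0 passed limma over all genes in either direction, 28 had a negative log2 fold, 10 lay below both ducts in both tips and 8 above, beside 11.1% and 28.5% of all genes. With TMM scaling 34 were negative, 21 lay below and 6 above, beside 18% and 20.4% of all genes. The median log2 fold was -0.05, and -0.25 with TMM. At an unadjusted p under 0.05 there were 3 in each direction, where 1.61% of all genes were lower in tip and 5.82% higher. Rock2, a kinase that activates myosin II, measured 415 and 682 CPM in the tips and 893 and 1009.9 CPM in the ducts. The LIM kinases, which switch off cofilin, had values of opposite sign: Limk1 measured 9.05 and 8.65 CPM in the tips and 15.3 and 36.2 CPM in the ducts, and Limk2 181 and 125 CPM in the tips and 94.4 and 58.0 CPM in the ducts. Lasp1, an adaptor at actin-rich sites, measured 163 and 103 CPM in the tips and 53.6 and 52.8 CPM in the ducts. Anln, encoding anillin, which serves cell division, measured 29.2 and 38.5 CPM in the tips and 5.15 and 13.2 CPM in the ducts. For the 5 genes named here the groups did not overlap, whereas Flna, the gene of filamin A, measured 2034 and 3109.8 CPM in the tips and 2518 and 2431 CPM in the ducts.

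In a list of 28 known SRF targets outside the members, 4 of which are also among the 48 regulators, 0 passed limma over all genes in either direction, 16 were positive and 12 negative, where 36.9% of all genes were negative. The median log2 fold was 0.30, and 0.10 with TMM, beside 0.20 and 0.03 over all genes. Both tips lay above both ducts for 5 of the 28 and below for 4, beside 28.5% and 11.1% of all genes. With TMM scaling the counts were 3 and 5, beside 20.4% and 18%. At an unadjusted p under 0.05 limma counted 2 higher in tip and 0 lower, beside 5.82% and 1.61% of all genes. Both were immediate early genes, a class that SRF drives with the ternary complex factors. Egr1 measured 4978 and 2715 CPM in the tips and 2232 and 2136 CPM in the ducts, and Ier2 459 and 316 CPM in the tips and 233 and 231 CPM in the ducts. Of other genes of that class in the list, Egr3 was higher in both tips (139.7 and 147 CPM in the tips and 104 and 95.5 CPM in the ducts), and the groups overlapped for Fos (3574 and 1304 CPM in the tips and 1512 and 1221 CPM in the ducts), Fosb, Junb and Egr2. Ctgf, a target of YAP and MRTF, was lower in both tips at 45.9 and 62.0 CPM in the tips and 86.1 and 87.7 CPM in the ducts. Vcl, encoding the adhesion protein vinculin, measured 224 and 366 CPM in the tips and 418 and 354 CPM in the ducts. The muscle-type targets Acta2 (550.4 and 1264 CPM in the tips and 155 and 787 CPM in the ducts) and Cnn1 (71.6 and 151 CPM in the tips and 23.0 and 149.6 CPM in the ducts) were both lowest in duct 1, as were 9 of the 10 smooth muscle markers.

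Beside these values stand the markers of other cells. The 10 smooth muscle markers summed to 1946 and 3256 CPM in the tips and 732 and 2971 CPM in the ducts. Immune markers, 7 of 8 of them tested, summed to 214 and 108 CPM in the tips and 92.7 and 112 CPM in the ducts. The sum was mostly Cd3e, at 131 and 88.4 CPM in the tips and 61.25 and 68.55 CPM in the ducts. Ptprc measured 12.55 and 0.6 CPM in the tips and 0.65 and 4.65 CPM in the ducts. Of the 7 tested, 6 were highest in tip 1. Adgre1, the macrophage marker F4/80, had 0 CPM in tip 2 and in duct 1, which at 3 reads allows up to 1.72 and 1.91 CPM, and no other marker was at 0 in any library. The 8 luminal markers summed to 1471 and 1484 CPM in the tips and 2339 and 1139 CPM in the ducts. Basal, luminal and actin sums were thus all highest in duct 1, the library lowest in fibroblast, smooth muscle and endothelial markers. The part of this mixture in the values of the actin genes was not tested.

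**Figure D5:**
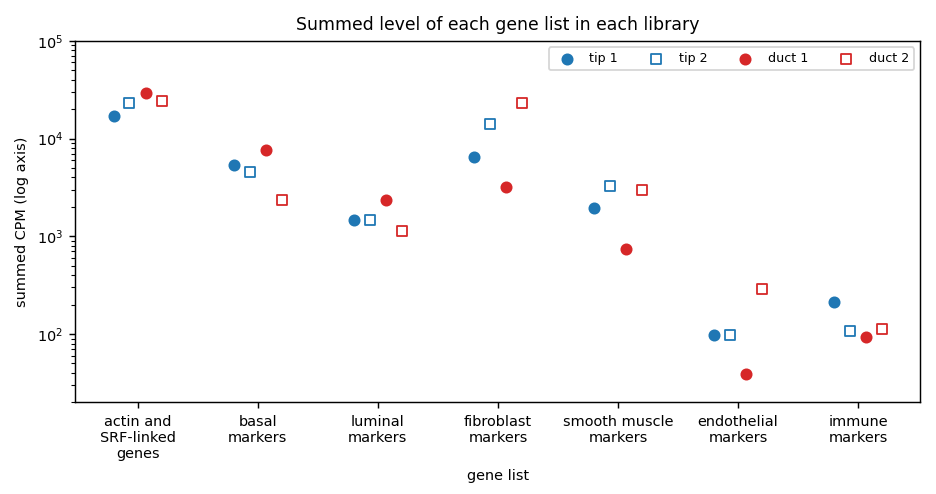
Summed CPM (log axis) of the 49 actin and SRF-linked genes and of 6 lists of cell type markers in each library. Blue is tip and red is duct, filled circles are replicate 1 and open squares replicate 2. Duct 1 and duct 2 are the lowest and highest library for fibroblast and endothelial markers, and the highest and lowest for basal and luminal markers.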

How the data were processed

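RNA-seq was done on 4 libraries of sorted basal cells, 2 from tips and 2 from ducts, prepared with a low-input kit (Ovation Solo). The submitters' processing notes name STAR and HTSeq and the build GRCm38 (mm10), without versions. For the annotation release, the strand setting and reads matching several genes, the setting is not given in the sources used here. Each deposited signal value is the authors' number of reads on a gene, scaled to 20000000 per library and rounded up, as found from the values: allowing for the rounding, 100% of values came out as whole reads within 0.1 read, and scaling those reads gave back at least 99.9% of values exactly. Depth was 1439004 to 1742531 recovered reads, and intervals and limits from 3 reads cover counting error only.

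CPM is the deposited value over 20. The 17865 genes averaging 1 CPM or more were tested with limma 3.58.1 (R 4.3.3) on log2(CPM + 1), with trend and robust moderation, 2-sided, tip against duct, and Benjamini-Hochberg adjustment over all of them at 0.05. An exact permutation test of 2 against 2 cannot go below p = 0.333. Alternatives were TMM and median-ratio scaling, pseudocounts of 0.5 and 4 CPM, a minimum mean of 5 CPM or none, edgeR 4.0.16 (quasi-likelihood) and DESeq2 1.42.0 on recovered reads, each library left out, and the title number as a block. Recovered reads gave 0 genes called by edgeR and 2 by DESeq2. The limma fit was tested on simulated data. Exon lengths, positions and shared 50-base words come from GENCODE M21 (GRCm38), by Ensembl identifier, for 49 of 49 members. Over 10% of words were shared for 11 members, among them Tmsb10 (43.5%), Cnn3 (16.4%) and Arpc1b (12.8%), whose levels are uncertain to that extent.

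The members and all gene lists were chosen with earlier results of these data known. Folds with SE are given for Mical2, Ahnak, each member with non-overlapping groups and, in roles with none, the member of smallest p. Adjusted p-values are given as a range. Named members of the pathway lists were those at an unadjusted p under 0.05, of which 1 is not reported here, and a few chosen after their values were seen (Flna, Ctgf, Vcl, Acta2 and Cnn1, and the markers Krt5, Krt14, Pdgfra and Adgre1).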

Additional observations from a re-analysis of the deposited data

How the results depend on the processing

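Of 247 alternatives for the 19 named members 233 kept sign and call, 11 passed the threshold and 3 reversed. When genes at low level were kept, limma called 62 genes higher and 32 lower in tip. Of these, 2 were members, Mical2 and Ahnak, both lower and both behind the choice of the list. DESeq2 called 2 genes lower. With 1 library left out the calls ran from 0 to 698 genes higher, 0 to 311 lower, and 0 to 10 members lower. Members higher in both tips than in both ducts numbered 1 with TMM, 1 with median-ratio scaling and 6 to 11 with a library left out, and members lower numbered 19, 20 and 14 to 31. The median log2 fold of the members, -0.19 as reported, was -0.38 with TMM, -0.42 with median-ratio scaling, -0.40 in edgeR, -0.44 in DESeq2 and -0.52 to -0.032 with a library left out. Signs reversed for Diaph3 with median-ratio scaling (-0.016), for Diaph3 with a library left out (-0.14 to 0.56) and for Mkl1 with a library left out (-0.41 to 0.038). The cause was not tested. Tip and duct share title numbers but the descriptions number the second tip differently, and across genes the deviations of same-numbered libraries correlated at 0.15 over 2 pairs, so the numbers were not taken as a pairing. With the replicate block limma called 0 genes and 0 members, and the median of the members stayed at -0.19. Counting error limits members at low level, such as Mical1 and Capg.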
